A study of Homo sapiens with 3 samples.

Results

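The transcripts described here are those of 37 genes for protein-folding factors, most of them cytosolic, taken from the 23284 genes of the deposited gene table by matching their symbols to a fixed list of names. They comprise the 8 subunits of the chaperonin TRiC, 2 prefoldin subunits, 5 genes of the HSP70 family, 4 J-domain proteins, 3 BAG proteins and the ubiquitin ligase STUB1, both HSP90 genes, 6 HSP90 cochaperones, the small heat shock protein HSPB1, 3 mitochondrial chaperones and 2 heat shock factors. HSPA9, HSPD1 and HSPE1 act mainly in mitochondria and HSF1 and HSF2 act on DNA, so these 5 genes go beyond a cytosolic label. The cells were HEK293T, an established human embryonic kidney line, and polyadenylated RNA was read from 3 libraries: 1 with an siRNA against ESRP2, an epithelial splicing regulator, 1 with an siRNA against Arkadia, the ubiquitin ligase encoded by RNF111, and 1 with a negative control siRNA. All 3 cultures received their siRNA by reverse transfection with Lipofectamine RNAiMAX, were harvested 48 h after seeding and got no TGF-beta. With 1 library per group there are no replicates, so every difference below is between libraries, without a test, and the culture, the library and the siRNA cannot be told apart.

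Chaperones keep unfolded proteins from aggregating and help them reach their native shape. HSP70 proteins bind short exposed stretches of a chain in cycles of ATP use that J-domain proteins start and exchange factors reset, and HSP90 takes over partly folded clients such as kinases and steroid receptors. TRiC is a double ring that encloses actin and tubulin, which prefoldin delivers to it, and HSF1 raises the transcription of many of these genes when unfolded protein builds up.

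Levels are FPKM as the authors deposited them, that is, fragments scaled to transcript length and library size, each with the authors' own interval, given in parentheses. Of the 37 genes, 36 entered the comparisons, among 11870 genes in all. The implied depth was 12.2 M reads with ESRP2 siRNA, 8.80 M with Arkadia siRNA and 11.7 M with control siRNA. RNF111 was at 7.65 (3.79 to 11.5) FPKM with ESRP2 siRNA, 1.15 (0.500 to 1.82) FPKM with Arkadia siRNA and 6.38 (3.15 to 9.59) FPKM with control siRNA, and only the Arkadia siRNA interval lay apart from that of the control library. ESRP2 was at 4.27 (0.0878 to 9.33) FPKM with ESRP2 siRNA, 21.2 (6.21 to 36.5) FPKM with Arkadia siRNA and 14.8 (3.34 to 26.3) FPKM with control siRNA. Both targets were thus lowest in the library of their own siRNA, at 0.181 times the control level for RNF111 and 0.289 times for ESRP2, but the ESRP2 intervals overlapped. The HEK293T markers VIM, KRT18, NEFL and NEFM were between 9.90 and 410.4 FPKM, PAX2 and LHX1 were between 0.718 and 2.13 FPKM, and 6 markers of other cell types did not exceed 0.619 FPKM.

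The promoters of these genes are shown because HSF1 binds inverted repeats of GAA, and because BAG1 and PTGES3 were the chaperone genes whose intervals lay apart from the control library's. The windows hold the 120 bases before the annotated start, 5′ to 3′ on the strand of the gene, from RefSeq on GRCh38.p14. HSP90AA1 has 2 annotated starts, and the start with the most motif matches was printed. Capitals mark each GAANNTTC or TTCNNGAA, 2 inverted GAA units that read the same on both strands; adjoining matches run together.
BAG1 (chr9:33264709-33264828, minus strand): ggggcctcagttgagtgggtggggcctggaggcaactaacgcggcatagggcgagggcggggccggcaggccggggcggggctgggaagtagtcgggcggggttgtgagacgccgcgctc
PTGES3 (chr12:56688285-56688404, minus strand): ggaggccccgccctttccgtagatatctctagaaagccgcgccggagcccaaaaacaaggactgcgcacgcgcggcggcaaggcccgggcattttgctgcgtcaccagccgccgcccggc
HSPA8 (chr11:123062137-123062256, minus strand): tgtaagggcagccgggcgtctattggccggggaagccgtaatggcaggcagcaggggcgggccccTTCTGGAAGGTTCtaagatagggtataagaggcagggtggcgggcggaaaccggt
HSP90AA1 (chr14:102087045-102087164, minus strand): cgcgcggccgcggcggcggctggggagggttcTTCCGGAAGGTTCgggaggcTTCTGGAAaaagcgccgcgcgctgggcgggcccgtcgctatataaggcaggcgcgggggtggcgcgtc
CHORDC1 (chr11:90223050-90223169, minus strand): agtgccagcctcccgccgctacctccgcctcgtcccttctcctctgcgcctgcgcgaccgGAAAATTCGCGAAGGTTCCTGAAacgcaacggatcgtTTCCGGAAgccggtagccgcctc
HSPA1A (chr6:31815423-31815542, plus strand): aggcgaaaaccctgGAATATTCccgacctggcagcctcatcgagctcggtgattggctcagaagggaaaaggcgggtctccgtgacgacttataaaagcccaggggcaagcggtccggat
HSPA1B (chr6:31827618-31827737, plus strand): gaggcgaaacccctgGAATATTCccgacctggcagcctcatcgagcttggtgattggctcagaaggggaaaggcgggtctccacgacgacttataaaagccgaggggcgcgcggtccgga

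The BAG1 and PTGES3 windows held no match. HSPA8, the most abundant of these transcripts, held a run of 2 overlapping matches, and CHORDC1 held 5, the most among the 7 windows printed. The paired genes HSPA1A and HSPA1B shared 1 match and a longest identical run of 37 bases. Over the longer RefSeq windows, from 250 bases before the start to 50 after it, 32 chaperone genes had an entry, and 17 of them (53.1%) held at least 1 match at 1 of their starts, against 16.2% of all 27305 genes with an entry. CCT6A, PFDN2, STUB1, FKBP4 and HSF1 were not looked at. A match is a description of the letters and not a measured binding site.

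The chaperone transcripts were among the abundant ones in these cells. Their sum was 1.76% of all FPKM with ESRP2 siRNA, 1.52% with Arkadia siRNA and 1.58% with control siRNA. At least 100 FPKM was reached by 22 of them with ESRP2 siRNA, 24 with Arkadia siRNA and 23 with control siRNA. HSPA8, the constitutive HSP70 of the cytosol, was at 1677 (927 to 2427) FPKM with ESRP2 siRNA, 1314 (717 to 1911) FPKM with Arkadia siRNA and 1287 (708 to 1867) FPKM with control siRNA. HSP90AB1, the constitutive HSP90, was at 1422 (813 to 2027) FPKM with ESRP2 siRNA, 1100.4 (627 to 1574) FPKM with Arkadia siRNA and 1151 (656 to 1645) FPKM with control siRNA. These genes held the first and the second place among the chaperones in every library, and their intervals overlapped between libraries. HSP90AA1, the more inducible HSP90, was at 505 (269 to 740.3) FPKM with ESRP2 siRNA, 607 (325 to 888) FPKM with Arkadia siRNA and 575 (307 to 842) FPKM with control siRNA. It made up 26.2% of both HSP90 transcripts with ESRP2 siRNA, 35.5% with Arkadia siRNA and 33.3% with control siRNA. The lowest entered gene was BAG3 at 14.8 FPKM with ESRP2 siRNA, and BAG2 at 9.48 FPKM with Arkadia siRNA and 13.2 FPKM with control siRNA.

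The stress-inducible HSP70 genes were at a low or moderate level. HSPA1B was at 39.7 (20.3 to 59.1) FPKM with ESRP2 siRNA, 47.5 (24.3 to 70.5) FPKM with Arkadia siRNA and 42.7 (21.8 to 63.6) FPKM with control siRNA. HSPA1A was listed at 0 with ESRP2 siRNA, at 0 with Arkadia siRNA and at 0.0347 FPKM with control siRNA, and so did not enter the comparisons. The transcripts are near copies: 72.6% of the 50-base stretches of HSPA1A also occur in HSPA1B, so reads could not be shared out between the pair with certainty. Whether the HSPA1B value also holds reads of HSPA1A is not known. In all, 11 of the 37 genes share over 10% of their 50-base stretches with another gene of the annotation, and 10 have a span that the deposited table shares with a neighbouring gene.

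**Figure D1:**
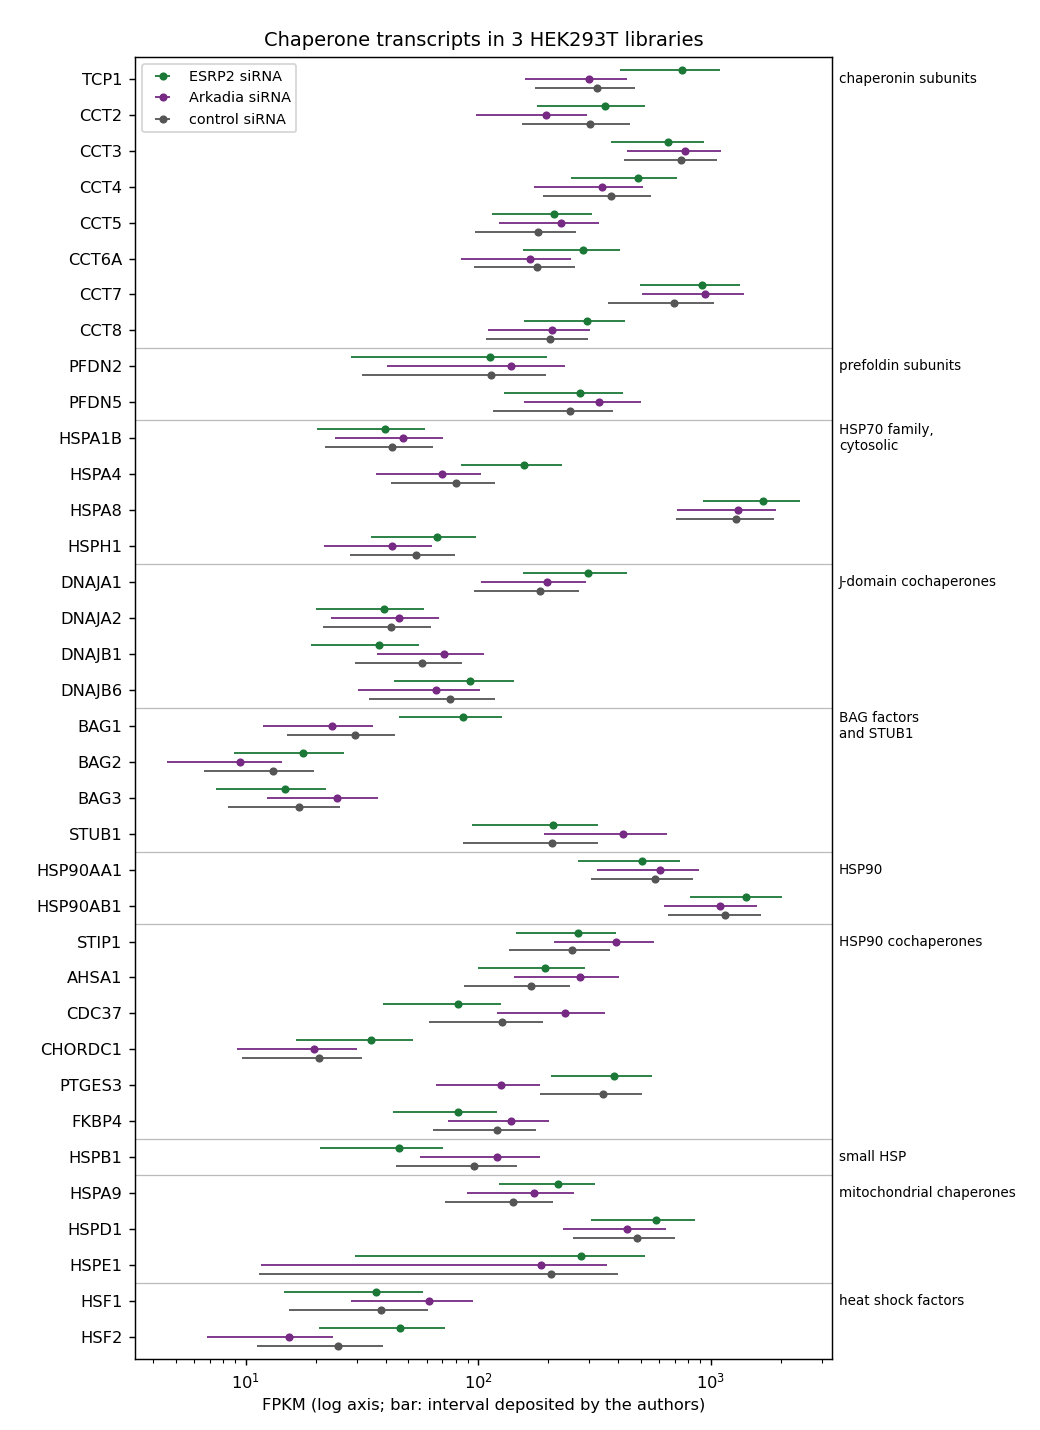
FPKM on a log axis (points) with the authors' intervals (bars) for the 36 chaperone genes that entered, grouped by role, with ESRP2 siRNA on top, then Arkadia siRNA, then control siRNA. Most intervals of a gene overlap across the 3 libraries; BAG1 with ESRP2 siRNA and PTGES3 with Arkadia siRNA stand apart from the other 2 libraries.

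The 8 chaperonin subunits, which join in equal number in the finished ring, did not have equal transcript levels. They ran from 211 FPKM for CCT5 to 914 FPKM for CCT7 with ESRP2 siRNA, from 167 FPKM for CCT6A to 948 FPKM for CCT7 with Arkadia siRNA, and from 178 FPKM for CCT6A to 743 FPKM for CCT3 with control siRNA. The highest was thus 4.34, 5.68 and 4.17 times the lowest in the ESRP2 siRNA, Arkadia siRNA and control siRNA libraries. TCP1 differed most from the control library with ESRP2 siRNA and CCT2 most with Arkadia siRNA. TCP1, the alpha subunit, was at 752 (407 to 1097) FPKM with ESRP2 siRNA, 298 (159 to 438) FPKM with Arkadia siRNA and 324 (175 to 472) FPKM with control siRNA. CCT2 was at 351 (179 to 522) FPKM with ESRP2 siRNA, 196 (97.8 to 294) FPKM with Arkadia siRNA and 301 (154 to 448) FPKM with control siRNA. TCP1 was highest in the ESRP2 siRNA library, where it stood above CCT3, while in the other 2 libraries CCT3 was more than 2-fold higher than TCP1. CCT3 was at 652 (372 to 931) FPKM with ESRP2 siRNA, 773 (434 to 1110.1) FPKM with Arkadia siRNA and 743 (424 to 1062) FPKM with control siRNA. CCT4 was at 484 (251 to 717) FPKM with ESRP2 siRNA, 342 (174 to 509) FPKM with Arkadia siRNA and 371 (191 to 551) FPKM with control siRNA. CCT5 was at 211 (114 to 307) FPKM with ESRP2 siRNA, 227 (123 to 331) FPKM with Arkadia siRNA and 180.2 (96.9 to 263) FPKM with control siRNA. All 3 of these had intervals that overlapped across the libraries. CCT6A was at 282 (155 to 408) FPKM with ESRP2 siRNA, 167 (84.5 to 249) FPKM with Arkadia siRNA and 178 (96.1 to 259.8) FPKM with control siRNA. CCT7 was at 914 (495 to 1336) FPKM with ESRP2 siRNA, 948 (505 to 1391) FPKM with Arkadia siRNA and 693 (361 to 1029) FPKM with control siRNA. CCT8 was at 294 (157 to 429) FPKM with ESRP2 siRNA, 207 (110.4 to 303) FPKM with Arkadia siRNA and 203 (108 to 297) FPKM with control siRNA. For CCT6A and CCT8 the Arkadia siRNA and control siRNA libraries were close and the ESRP2 siRNA library was the highest, again with overlapping intervals. The prefoldin subunit PFDN2 was between 113 and 138 FPKM and PFDN5 between 247 and 329 FPKM.

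The first comparison asks which chaperone transcripts differed when ESRP2 was targeted. In the ESRP2 siRNA library BAG1, an HSP70 exchange factor, and TCP1 were the most raised over the control library. With them 6 other genes were past 1.5-fold higher, and HSPB1, CDC37 and DNAJB1 were past 1.5-fold lower. The other 25 were within 1.5-fold, among them both HSP90 genes and HSPA8. Differences are log2((FPKM + 1)/(FPKM + 1)), which understates those of low genes. The 8 of 36 genes higher (22.2%) compare with 19.9% of all 11870 genes, and the 3 lower (8.33%) with 11.4%, so neither share lay far from that of all genes. With other scalings between the libraries the split was 5 higher and 4 lower, or 4 and 4. In bulk RNA, fewer cells with a transcript and less of it per cell cannot be told apart. The median difference was 0.25, against 0.12 over all genes.

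BAG1 was at 86.1 (45.6 to 126) FPKM with ESRP2 siRNA, 23.5 (11.9 to 35.1) FPKM with Arkadia siRNA and 29.4 (15.0 to 43.9) FPKM with control siRNA. With ESRP2 siRNA that is 2.92 times the control level, a log2 difference of 1.52, and the lower bound with ESRP2 siRNA lay just above the upper bound with control siRNA. At the implied depth these levels correspond to about 4053 reads with ESRP2 siRNA, 801 with Arkadia siRNA and 1329 with control siRNA. BAG1 was the 1 chaperone gene whose intervals lay apart in this comparison, against 0.868% of all genes apart and higher and 0.413% apart and lower. Its locus on hg19 is chr9:33252470-33264759. The TCP1 difference was 1.21, 2.32 times the control level, with overlapping intervals. TCP1 lies at chr6:160181291-160210735, a span that the deposited table shares with ACAT2 and 2 small nucleolar RNA genes, so reads of neighbouring transcripts may enter its value. Among the chaperonin subunits, 7 of 8 were above 0 and 2 were past 1.5-fold higher, TCP1 and CCT6A (0.66). The same was above 0 for 57.9% of all genes. After the correction for GC content described below, 5 of 8 subunits were above 0 and TCP1 was the 1 past 1.5-fold. Over 11746 genes, 5870 were above 0 after it, a count set by subtracting medians, and 1068 were past 1.5-fold higher. The subunits' median was 0.39 before the correction.

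The HSP110 protein HSPA4, an exchange factor of the HSP70 family, was at 157 (84.2 to 230.1) FPKM with ESRP2 siRNA, 69.5 (36.3 to 103) FPKM with Arkadia siRNA and 79.9 (42.2 to 118) FPKM with control siRNA. Its difference of 0.97 was just under 2-fold. The J-domain protein DNAJA1, which stimulates the ATPase of HSPA8, was at 296 (156 to 437) FPKM with ESRP2 siRNA, 198 (103 to 291) FPKM with Arkadia siRNA and 184 (96.2 to 271) FPKM with control siRNA, a difference of 0.68. DNAJB1, the J-domain protein induced together with HSPA1A on heat shock, was at 37.4 (19.1 to 55.6) FPKM with ESRP2 siRNA, 71.1 (36.7 to 105) FPKM with Arkadia siRNA and 57.5 (29.6 to 85.4) FPKM with control siRNA. It differed in the other direction, by -0.61. So the 4 J-domain genes split, with DNAJA1 higher, DNAJB1 lower and DNAJA2 (39.2 to 45.4 FPKM over the libraries) and DNAJB6 (65.8 to 92.5 FPKM) within 1.5-fold.

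HSPB1, a small heat shock protein that holds unfolded chains in large oligomers, was at 45.8 (21.0 to 70.5) FPKM with ESRP2 siRNA, 120.5 (56.3 to 185) FPKM with Arkadia siRNA and 95.5 (44.2 to 146) FPKM with control siRNA. With ESRP2 siRNA it was at 0.479 times the control level, a log2 difference of -1.04. The kinase-specific cochaperone CDC37 was at 82.1 (39.1 to 125) FPKM with ESRP2 siRNA, 236 (119.8 to 352) FPKM with Arkadia siRNA and 126 (61.1 to 191) FPKM with control siRNA. It was lowest with ESRP2 siRNA, at -0.61 against the control library, and highest with Arkadia siRNA. CHORDC1, a zinc-binding cochaperone of HSP90, was at 34.5 (16.5 to 52.5) FPKM with ESRP2 siRNA, 19.7 (9.14 to 30.2) FPKM with Arkadia siRNA and 20.6 (9.67 to 31.6) FPKM with control siRNA. Its difference of 0.71 was the 1 call in the higher direction among the 6 HSP90 cochaperones, with CDC37 the 1 in the lower. HSPA9, the mitochondrial HSP70, was at 219.8 (122 to 317) FPKM with ESRP2 siRNA, 174 (89.0 to 258) FPKM with Arkadia siRNA and 141 (72.2 to 210.2) FPKM with control siRNA, a difference of 0.63. HSPD1, the mitochondrial chaperonin, and HSPE1, its lid, were within 1.5-fold. HSPD1 was between 437.6 and 582.2 FPKM. HSPE1 was at 276 (29.5 to 520.4) FPKM with ESRP2 siRNA, 185 (11.6 to 358) FPKM with Arkadia siRNA and 205 (11.4 to 397) FPKM with control siRNA, with wide intervals, and shares its span in the deposited table with HSPD1. HSF2, a heat shock factor active in development and under proteotoxic stress, was at 46.2 (20.7 to 71.8) FPKM with ESRP2 siRNA, 15.3 (6.79 to 23.7) FPKM with Arkadia siRNA and 25.0 (11.2 to 38.9) FPKM with control siRNA, a difference of 0.86.

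**Figure D2:**
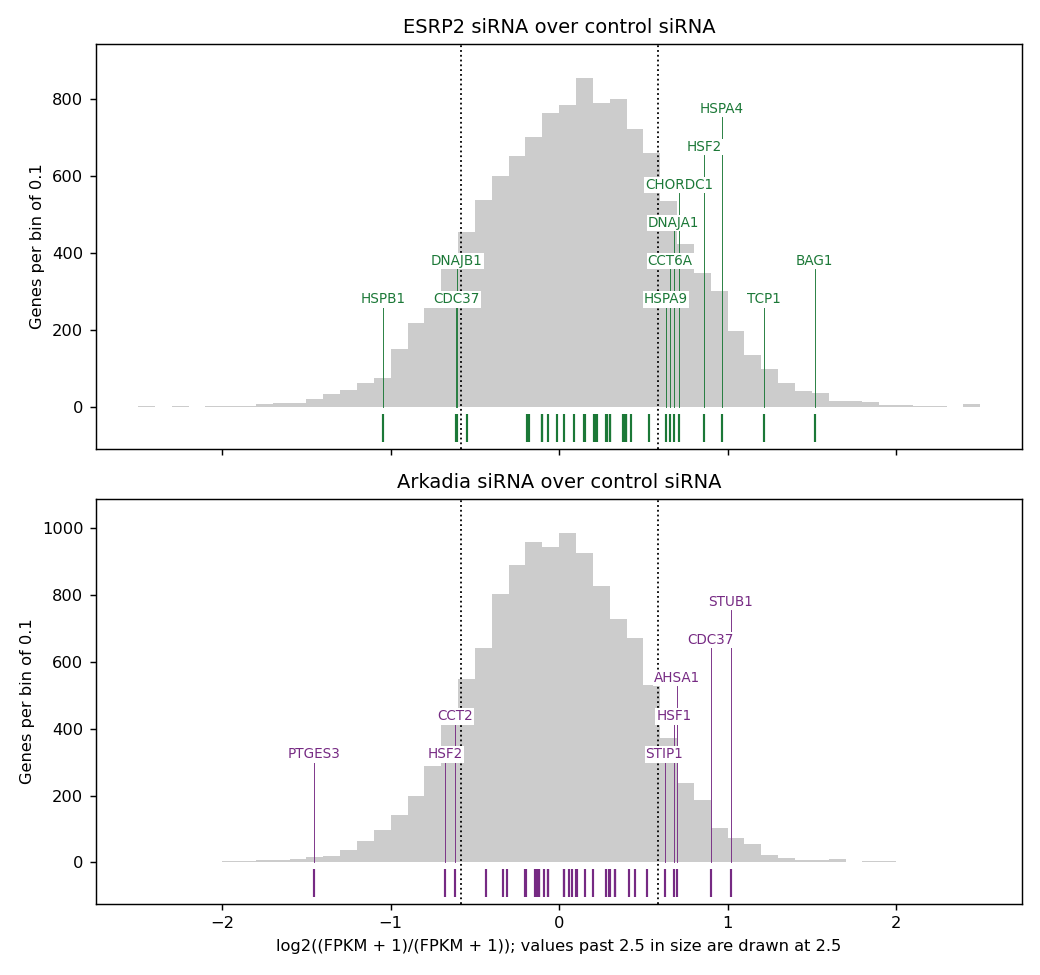
Distribution of log2((FPKM + 1)/(FPKM + 1)) over 11870 genes (grey, genes per bin of 0.1) for ESRP2 siRNA over control siRNA (top) and Arkadia siRNA over control siRNA (bottom), with the 36 chaperone genes as ticks. Named genes lie past the dotted lines at 1.5-fold: 8 right and 3 left on top, 5 right and 3 left at the bottom.

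The second comparison asks the same of Arkadia, against the same control library. PTGES3, the HSP90 cochaperone p23, was the most lowered chaperone transcript with Arkadia siRNA. STUB1, the ligase that marks chaperone-bound clients with ubiquitin, was the most raised. CDC37, AHSA1, HSF1 and STIP1 were also past 1.5-fold higher and HSF2 and CCT2 past 1.5-fold lower. The other 28 genes were within 1.5-fold. The 5 of 36 higher (13.9%) compare with 9.81% of all genes and the 3 lower (8.33%) with 11.8%. The median difference was 0.07, against -0.02 over all genes.

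PTGES3 was at 382 (206 to 558) FPKM with ESRP2 siRNA, 125 (65.7 to 184) FPKM with Arkadia siRNA and 345 (185 to 504) FPKM with control siRNA. With Arkadia siRNA it was at 0.363 times the control level, a log2 difference of -1.45, while the ESRP2 siRNA library was within 1.5-fold of the control. At the implied depth these levels correspond to about 8889 reads with ESRP2 siRNA, 2112 with Arkadia siRNA and 7697 with control siRNA. The upper bound with Arkadia siRNA lay just below the lower bound with control siRNA. PTGES3 was the 1 chaperone gene with intervals apart here, against 0.194% of all genes apart and higher and 0.244% apart and lower. Its locus on hg19 is chr12:57057125-57082078, and 12.9% of its 50-base stretches occur in other genes. STUB1 was at 211 (93.6 to 328) FPKM with ESRP2 siRNA, 420.1 (191 to 649) FPKM with Arkadia siRNA and 207 (85.9 to 328) FPKM with control siRNA. The difference was 1.02, 2.03 times the control level, and the intervals overlapped. STUB1 shares its span in the deposited table with JMJD8.

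AHSA1, which stimulates the ATPase of HSP90, was at 194 (99.9 to 289) FPKM with ESRP2 siRNA, 274 (143 to 402) FPKM with Arkadia siRNA and 168 (86.6 to 248) FPKM with control siRNA. STIP1, which links HSP70 to HSP90, was at 268 (145 to 392) FPKM with ESRP2 siRNA, 390.3 (212 to 567) FPKM with Arkadia siRNA and 253 (135 to 369.6) FPKM with control siRNA. FKBP4, an immunophilin of steroid receptor complexes, was at 81.9 (42.9 to 121) FPKM with ESRP2 siRNA, 138 (74.1 to 202) FPKM with Arkadia siRNA and 120.3 (63.8 to 176) FPKM with control siRNA. With Arkadia siRNA against control siRNA, AHSA1 differed by 0.70, STIP1 by 0.63, CDC37 by 0.90 and FKBP4 by 0.20. Of the 6 HSP90 cochaperones, 3 (against 9.81% of all genes) were thus past 1.5-fold higher and 1, PTGES3, lower (against 11.8%), while HSP90AA1 (0.08) and HSP90AB1 (-0.07) stood level with the control library. After the correction for GC content 1 of the 3 stayed past 1.5-fold, AHSA1 (0.66), while STIP1 (0.49) and CDC37 (0.56) did not. Over 11746 genes, 733 were past 1.5-fold higher after it. No cochaperone difference other than that of PTGES3 came with intervals apart.

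HSF1, the main activator of heat shock genes, was at 36.3 (14.5 to 58.0) FPKM with ESRP2 siRNA, 61.6 (28.2 to 94.9) FPKM with Arkadia siRNA and 38.0 (15.3 to 60.7) FPKM with control siRNA. It differed by 0.68 and HSF2 by -0.68. The factors thus lay on opposite sides, and HSF1 over HSF2 was 0.784 with ESRP2 siRNA, 4.03 with Arkadia siRNA and 1.52 with control siRNA. The intervals of each factor overlapped across the libraries. HSF1 has 63.9% GC and HSF2 40.9%, and after the GC correction neither stayed past 1.5-fold (0.34 and -0.32). CCT2 (-0.62) was the 1 chaperonin subunit past 1.5-fold, 4 of 8 subunits were above 0, and their median was -0.03. No HSP70, J-domain or mitochondrial gene of the list was past 1.5-fold with Arkadia siRNA.

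The libraries of the 2 siRNAs were set against each other as well. With Arkadia siRNA over ESRP2 siRNA, 7 of 36 genes (19.4%) were past 1.5-fold higher, against 21.2% of all genes, and 10 (27.8%) were lower, against 30.8%. With other scalings 9 were higher and 9 lower. The median was -0.35, against -0.14 over all genes. BAG1 (-1.83) and PTGES3 (-1.60) were the most lowered, both with intervals apart, which 4.47% of all genes showed in this direction and 1.9% in the other. HSF2 (-1.54), TCP1 (-1.33) and HSPA4 (-1.17) followed, each past 2-fold, and CCT2, BAG2, CHORDC1, CCT6A and HSPH1 lay between -0.63 and -0.84. CDC37 (1.51) and HSPB1 (1.38) were the most raised, followed by STUB1 (0.99), DNAJB1 (0.91), HSF1 (0.75), FKBP4 (0.75) and BAG3 (0.70). BAG2, which inhibits STUB1, was at 17.7 (8.91 to 26.4) FPKM with ESRP2 siRNA, 9.48 (4.58 to 14.4) FPKM with Arkadia siRNA and 13.2 (6.58 to 19.7) FPKM with control siRNA. BAG3, an exchange factor linked to autophagy, was at 14.8 (7.41 to 22.2) FPKM with ESRP2 siRNA, 24.6 (12.3 to 36.9) FPKM with Arkadia siRNA and 16.9 (8.36 to 25.4) FPKM with control siRNA. HSPH1, the other HSP110 protein, was at 66.4 (34.5 to 98.1) FPKM with ESRP2 siRNA, 42.4 (21.7 to 63.1) FPKM with Arkadia siRNA and 53.7 (28.0 to 79.5) FPKM with control siRNA. BAG2 and HSPH1 were highest with ESRP2 siRNA and BAG3 with Arkadia siRNA, and all 3 were within 1.5-fold of the control library with either siRNA.

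Transcript GC content moved with these differences. With ESRP2 siRNA over control siRNA the 8 higher chaperone transcripts had 38.2% to 48.6% GC and the 3 lower ones 53.0% to 64.5%. The pattern was turned round with Arkadia siRNA over control siRNA, with 51.7% to 65.3% GC among the 5 higher and 40.6% to 45.9% among the 3 lower. Across the 36 genes, which share their libraries and are not independent, Pearson's r of GC content and log2 difference was -0.60 and Spearman's rho -0.65 with ESRP2 siRNA over control siRNA, against -0.62 and -0.64 over 11746 genes. For Arkadia siRNA over control siRNA the values were 0.70 and 0.72 for the chaperones and 0.53 and 0.57 for all genes. The chaperone differences thus went with GC content in the same direction as those of all genes. Slopes were not fitted.

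The differences were therefore also taken after subtracting the median of all genes in the same decile of GC content. BAG1 (1.32) and TCP1 (0.90) stayed past 1.5-fold with ESRP2 siRNA over control siRNA, and none of the other 9 called genes did. DNAJA2 (-0.62) and FKBP4 (-0.61) passed it, on the lower side. This left 2 of 36 chaperones higher and 2 lower. Over all genes, 2361 higher and 1354 lower of 11870 became 1068 and 865 of 11746, so the calls fell there as well. Past 1.5-fold with Arkadia siRNA over control siRNA there stayed PTGES3 (-1.10), STUB1 (0.68) and AHSA1 (0.66), and the other 5 called genes did not stay. In that comparison 1165 higher and 1396 lower of all genes became 733 and 805. The chaperonin median with ESRP2 siRNA over control siRNA was 0.10 after this step. For Arkadia siRNA over ESRP2 siRNA it was -0.50 before and 0.03 after, so that direction turned. Of the 7 higher genes in that comparison, 3 stayed past 1.5-fold, CDC37 (0.86), FKBP4 (0.77) and DNAJB1 (0.64), while HSPB1 (0.57), STUB1 (0.18), BAG3 (0.22) and HSF1 did not. Of the 10 lower, 4 stayed, BAG1 (-1.58), TCP1 (-0.85), PTGES3 (-0.74) and HSF2 (-0.67). CCT5 (0.59), DNAJA2 (1.07) and HSP90AA1 (0.75) passed 1.5-fold on the higher side. All genes went from 2521 higher and 3656 lower to 1427 and 1629. The direction turned for 9 of 36 genes, and 4 of these had been called: HSPH1 (0.23), BAG2 (0.25), CHORDC1 (0.30) and HSF1 (-0.06). It turned for 10 genes in each comparison with the control library, none of them called there.

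**Figure D3:**
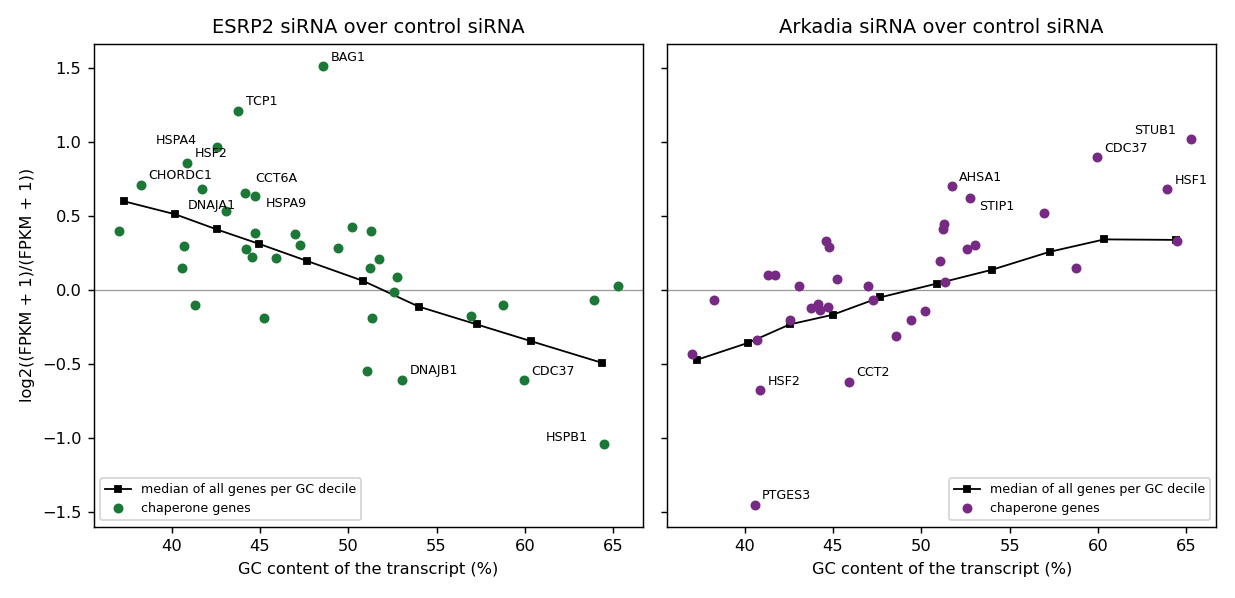
Transcript GC content (%) against log2((FPKM + 1)/(FPKM + 1)) for 36 chaperone genes (coloured points) with ESRP2 siRNA (left) and Arkadia siRNA (right) over control siRNA. Squares joined by a line are medians of all genes per decile of GC content; BAG1 and TCP1 lie farthest above the line on the left and PTGES3 farthest below it on the right.

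Isoform shares were compared for 14 chaperone genes, those with 2 or more isoforms that summed to 5 FPKM or more in every library. HSPA1B counted among them with 4 isoforms listed on other chromosome 6 haplotypes, and the same listed isoform held 100% of its FPKM in every library. The CHORDC1 isoform of 3385 nt likewise held 100% in every library, so neither gene showed a change. The usage change is the share of a gene's FPKM that passes from some isoforms to others, from 0 to 1. It reached 0.25 for 0 of 14 genes with ESRP2 siRNA over control siRNA, against 20% of 3413 genes. CCT7 alone (0.395) reached it with Arkadia siRNA over control siRNA, against 17.1% of genes. In Arkadia siRNA over ESRP2 siRNA it was reached by CCT7 (0.382), HSPA8 (0.318) and HSPD1 (0.275), against 26.4% of genes. The median change of the chaperones was 0.0050 with ESRP2 siRNA over control siRNA and 0.0102 with Arkadia siRNA over control siRNA, against 0.0890 and 0.0846 over all genes. These medians were not matched for level, since all genes enter from 5 FPKM and most of these chaperones were far more abundant. In TCP1, CCT2, CCT3, CCT4, CCT6A, HSP90AA1 and CHORDC1 the main isoform held over 98% in every library, which leaves little room for a change.

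In CCT7, whose total differed by 0.45 with Arkadia siRNA, 2 of the 6 annotated isoforms changed places. The isoform of 1675 nt was at 231 (18.7 to 457) FPKM with ESRP2 siRNA, 3.77 (0 to 24.1) FPKM with Arkadia siRNA and 276 (62.2 to 490.1) FPKM with control siRNA. The isoform of 1324 nt was at 19.4 (0 to 89.8) FPKM with ESRP2 siRNA, 376 (66.7 to 686) FPKM with Arkadia siRNA and 9.88 (0 to 56.1) FPKM with control siRNA. For both, the interval with Arkadia siRNA lay apart from that with control siRNA and overlapped that with ESRP2 siRNA. For the isoform of 1324 nt the bounds were close, 66.7 with Arkadia siRNA and 56.1 with control siRNA. How many isoforms of all genes had intervals apart was not counted. The main isoform, of 1936 nt, held 72.5% with ESRP2 siRNA, 59.2% with Arkadia siRNA and 58.0% with control siRNA.

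Other isoform shares differed with intervals that overlapped. The HSPA8 isoform of 1859 nt held 39.8% with ESRP2 siRNA, 7.96% with Arkadia siRNA and 31.5% with control siRNA. The HSPD1 isoforms differ by 20 nt in length, and that of 2321 nt held 9.90% with ESRP2 siRNA, 37.4% with Arkadia siRNA and 22.1% with control siRNA. The PFDN5 isoform of 687 nt held 65.0% with ESRP2 siRNA, 83.3% with Arkadia siRNA and 62.3% with control siRNA. In HSPA8 and HSPD1 the control siRNA share lay between the ESRP2 siRNA and Arkadia siRNA shares. For the HSPD1 isoform of 2321 nt the share differed from control by -12.2 percentage points with ESRP2 siRNA and by 15.3 with Arkadia siRNA. In PFDN5 the ESRP2 siRNA and control siRNA shares were close.

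**Figure D4:**
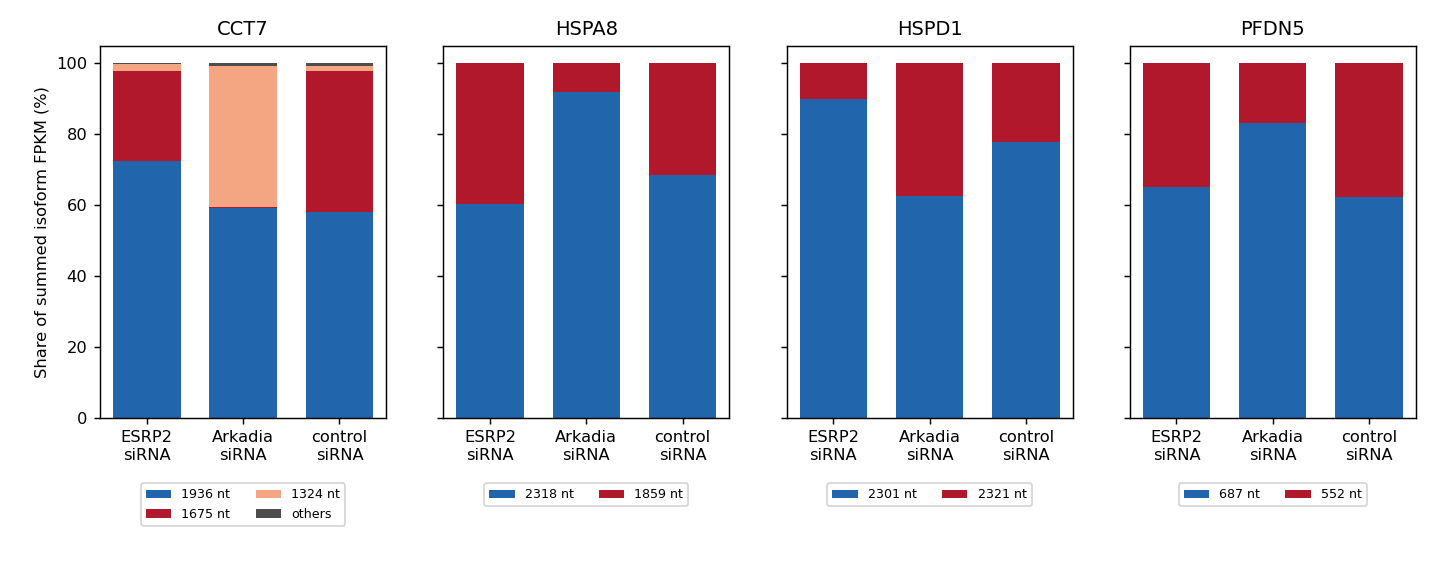
Share of the summed isoform FPKM (%) held by each isoform of CCT7, HSPA8, HSPD1 and PFDN5, named by length, with ESRP2 siRNA, Arkadia siRNA and control siRNA from left to right. The CCT7 isoform of 1324 nt takes 39.7% with Arkadia siRNA and at most 2.12% in the other 2 libraries.

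Further genes of the same systems were taken from lists of 67 names, of which 60 entered. With ESRP2 siRNA over control siRNA 14 of the 60 were past 1.5-fold higher and 6 lower, with a median of 0.20. In Arkadia siRNA over control siRNA 5 were higher and 8 lower, with a median of -0.05. In Arkadia siRNA over ESRP2 siRNA 11 were higher and 25 lower, with a median of -0.33. The shares were 23.3% higher and 10.0% lower in the first of these comparisons and 8.33% and 13.3% in the second, near those of all genes given above. In the direct comparison 18.3% were higher, against 21.2% of all genes, and 41.7% lower, against 30.8%. After the GC correction the counts were 3 higher and 2 lower with ESRP2 siRNA over control siRNA, 2 and 7 with Arkadia siRNA over control siRNA, and 2 and 11 in the direct comparison, whose median became 0.0014. Over the 11746 genes with a GC value, the corrected counts were 1068 higher and 865 lower, 733 and 805, and 1427 and 1629, in the same order. They are the counts to set beside the corrected counts of each list below, in place of the uncorrected shares. Each difference below is followed by its value after that correction.

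Among 14 other HSP90 system genes, 4 were higher and 1 lower with ESRP2 siRNA over control siRNA (2 and 0 after the GC correction). The shares before it were 28.6% and 7.14%, against 19.9% and 11.4% of all genes. SUGT1, a cochaperone of HSP90 needed at the kinetochore, was at 110.2 (54.1 to 166) FPKM with ESRP2 siRNA, 22.1 (9.83 to 34.5) FPKM with Arkadia siRNA and 34.2 (15.5 to 52.8) FPKM with control siRNA. Its difference of 1.66, then 1.25, was the 1 with intervals apart among the 60 genes in this comparison. RPAP3, of the R2TP complex, was at 25.6 FPKM with ESRP2 siRNA, 8.24 FPKM with Arkadia siRNA and 8.32 FPKM with control siRNA (1.52, then 0.91, with ESRP2 siRNA). With Arkadia siRNA over control siRNA 1 was higher (7.14%, against 9.81% of all genes) and 2 were lower (14.3%, against 11.8%). After the GC correction the counts were again 1 and 2, with NUDC in place of SUGT1 among the lower. UNC45A, a myosin chaperone, was at 51.5 FPKM with ESRP2 siRNA, 116 FPKM with Arkadia siRNA and 56.1 FPKM with control siRNA (1.04, then 0.70, with Arkadia siRNA). TOMM34, a cochaperone of mitochondrial import, was at 31.5 FPKM with ESRP2 siRNA, 19.6 FPKM with Arkadia siRNA and 50.3 FPKM with control siRNA (-1.32, then -1.46, with Arkadia siRNA).

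Of 18 other HSP70 system genes, 6 were higher (33.3%, against 19.9% of all genes) and 2 lower (11.1%, against 11.4%) with ESRP2 siRNA over control siRNA. After the GC correction the counts were 0 and 1, the 1 being BAG4, which had not been called before. With Arkadia siRNA over control siRNA 2 were higher (11.1%, against 9.81%) and 1 lower (5.56%, against 11.8%), and 0 and 1 after the GC correction. HSPA14, a ribosome-bound HSP70, was at 56.6 FPKM with ESRP2 siRNA, 25.6 FPKM with Arkadia siRNA and 28.8 FPKM with control siRNA (0.95, then 0.54, with ESRP2 siRNA). DNAJC9, a histone chaperone, was at 142 FPKM with ESRP2 siRNA, 64.9 FPKM with Arkadia siRNA and 76.2 FPKM with control siRNA (0.89, then 0.57, with ESRP2 siRNA). Both were highest with ESRP2 siRNA and close between the other 2 libraries. HSPA4L, a paralog of HSPA4, was at 45.9 FPKM with ESRP2 siRNA, 16.5 FPKM with Arkadia siRNA and 35.4 FPKM with control siRNA (-1.06, then -0.83, with Arkadia siRNA). HSPA13, a microsomal HSP70, was at 40.7 FPKM with ESRP2 siRNA, 16.4 FPKM with Arkadia siRNA and 21.9 FPKM with control siRNA (0.87, then 0.27, with ESRP2 siRNA).

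Of 15 other prefoldin and tubulin folding genes, 2 were higher (13.3%, against 19.9% of all genes) and 0 lower (against 11.4%) with ESRP2 siRNA over control siRNA. After the GC correction the counts were 1 and 0. With Arkadia siRNA over control siRNA 1 was higher (6.67%, against 9.81%) and 4 lower (26.7%, against 11.8%), and 1 and 2 after the GC correction. The prefoldin subunit PFDN4 was at 32.7 FPKM with ESRP2 siRNA, 7.62 FPKM with Arkadia siRNA and 14.1 FPKM with control siRNA (1.16, then 0.55, with ESRP2 siRNA and -0.81, then -0.34, with Arkadia siRNA). VBP1, also a prefoldin subunit, was at 250.4 FPKM with ESRP2 siRNA, 77.3 FPKM with Arkadia siRNA and 167 FPKM with control siRNA (-1.10, then -0.63, with Arkadia siRNA). TXNDC9, a phosducin-like partner of the chaperonin, was at 21.9 FPKM with ESRP2 siRNA, 8.80 FPKM with Arkadia siRNA and 18.8 FPKM with control siRNA (-1.01, then -0.66, with Arkadia siRNA). All 3 were lowest with Arkadia siRNA. The tubulin cofactor TBCA was at 374 FPKM with ESRP2 siRNA, 115 FPKM with Arkadia siRNA and 173 FPKM with control siRNA (1.11, then 0.60, with ESRP2 siRNA).

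Among 10 other mitochondrial chaperone and protease genes, 2 were higher (20%, against 19.9% of all genes) and 2 lower (20%, against 11.4%) with ESRP2 siRNA over control siRNA. With Arkadia siRNA over control siRNA 1 was higher (10%, against 9.81%) and 0 lower (against 11.8%). After the GC correction 0 were called in either comparison. The protease subunit CLPP was at 48.2 FPKM with ESRP2 siRNA, 117 FPKM with Arkadia siRNA and 101 FPKM with control siRNA (-1.05, then -0.56, with ESRP2 siRNA). Its ATPase partner CLPX was at 24.9 FPKM with ESRP2 siRNA, 10.7 FPKM with Arkadia siRNA and 13.6 FPKM with control siRNA (0.83, then 0.42, with ESRP2 siRNA). The exchange factor GRPEL2 was at 13.3 FPKM with ESRP2 siRNA, 5.65 FPKM with Arkadia siRNA and 6.30 FPKM with control siRNA (0.97, then 0.37, with ESRP2 siRNA). CLPP and CLPX thus lay on opposite sides. The protease LONP1 was at 51.1 FPKM with ESRP2 siRNA, 106 FPKM with Arkadia siRNA and 94.2 FPKM with control siRNA (-0.87, then -0.38, with ESRP2 siRNA). Of 3 entered small heat shock and control genes, HSPB11, a part of intraflagellar transport, was at 71.8 FPKM with ESRP2 siRNA, 20.5 FPKM with Arkadia siRNA and 76.5 FPKM with control siRNA (-1.85, then -1.38, with Arkadia siRNA), and SERPINH1, the collagen chaperone of the endoplasmic reticulum, was at 55.9 FPKM with ESRP2 siRNA, 79.9 FPKM with Arkadia siRNA and 105 FPKM with control siRNA (-0.89, then -0.55, with ESRP2 siRNA).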

How the data were processed

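Polyadenylated RNA of 3 HEK293T cultures was made into Ion Torrent libraries, per the labels' protocols. FPKM and its intervals are used as the authors deposited them. The submitters' processing notes name Cuffdiff, Cufflinks 2.1.1, Bowtie2 2.1.0, TopHat2 2.0.10 and the build hg19. How Cuffdiff scaled the libraries and handled strand, its version and the order of steps are not given in the sources used. The deposited tables also give transcript lengths, per the file headers. Depth was inferred from the step that 1 read makes in the FPKM of low genes.

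Computed here with Python 3.11.15, numpy 2.4.6 and pandas 2.3.3 were log2 differences with a pseudocount of 1, for genes with a mean FPKM of at least 1, a longest isoform of 300 nt or more and status OK in every library. A gene was called past 1.5-fold. The counting was tested on simulated data with little noise and no GC trend among the calls, which checks the code and not the calls made here. No test was run, since each group has 1 library. Both siRNA libraries were set against the same control library. GC content and 50-base sharing were read from GENCODE 29 transcripts; 78.5% of genes were matched through their RefSeq accession with a similar length, and all 36 entered chaperones had a match of some kind. No coordinates came from them. Promoters came from RefSeq on GRCh38.p14, and hg19 positions of genes were copied from the deposited tables and count from 1.

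The genes, lists and thresholds were chosen with earlier results of these data known. By rule, intervals are given for chaperones past 1.5-fold or apart in any comparison, the chaperonin subunits, HSP90, the heat shock factors and the 5 most abundant, and levels for up to 4 genes of each further list, those past 1.5-fold with the largest difference from the control library. NUDC and BAG4 were named after their values were seen. Alternatives tried were other pseudocounts, filters, scalings, sizes, GC and length corrections, and the isoform table.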

Additional observations from a re-analysis of the deposited data

How the results depend on the processing

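The counts of called chaperones depended on scaling, GC content and the size asked for. With ESRP2 siRNA over control siRNA, the 8 higher became 5 with median-of-ratios scaling, 4 with upper-quartile scaling, 2 after GC subtraction, 2 at 2-fold and 1 with intervals apart, and the 3 lower became 1 at 2-fold and 0 with intervals apart. These scalings moved the median of all genes by -0.11 and -0.15, and gave 5 higher and 4 lower, and 4 higher and 4 lower, in place of 8 and 3 (all genes 1718 and 1834, and 1526 and 2054, in place of 2361 and 1354). The chaperone median of 0.25 became 0.1255, 0.0778 and, after GC subtraction, 0.1095. With Arkadia siRNA over control siRNA, the 5 higher became 2 after GC subtraction, 1 at 2-fold and 0 with intervals apart, and the 3 lower became 1 in each case. With Arkadia siRNA over ESRP2 siRNA, the 7 higher became 2 at 2-fold and 0 with intervals apart, and the 10 lower became 4 after GC subtraction, 5 at 2-fold and 2 with intervals apart. Here the scalings moved the median of all genes by 0.14 each, and gave 9 higher and 9 lower chaperones in place of 7 and 10 (all genes 3102 and 2995, and 3127 and 2967, in place of 2521 and 3656). The chaperone median of -0.35 became -0.1884 and -0.1823 with these scalings, and after GC subtraction it turned to 0.1057, as did HSPH1 (0.2285), BAG2 (0.2474), CHORDC1 (0.3031) and HSF1 (-0.0611). The pseudocount of 0.1, the isoform table, length subtraction, both filters on mean FPKM and leaving out HSPA1B moved none of these counts by over 1.5 times. GC subtraction lowered the counts over all genes too. They became 1068 higher and 865 lower with ESRP2 siRNA over control siRNA, 733 and 805 with Arkadia siRNA over control siRNA, and 1427 and 1629 with Arkadia siRNA over ESRP2 siRNA, of 11746 genes. No paired analysis was possible because each group has 1 library. The Arkadia siRNA library was the shallowest. With 1 library per group the intervals do not rest on repeat cultures, so they cannot be taken to cover differences between cultures.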

Other observations

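A stricter motif, the 2-unit motif extended by 1 more inverted GAA unit at the same spacing of 2 bases, searched on both strands and overlapping the 2-unit matches, was chosen after the promoters had been read. It was found in the longer window of 7 of 32 chaperone genes, CHORDC1, DNAJA1, DNAJB6, HSP90AA1, HSP90AB1, HSPA8 and HSPD1, that is 21.9%, against 0.608% of all 27305 genes. Of these 7, 2 were past 1.5-fold higher and 0 lower with ESRP2 siRNA over control siRNA. Among the 24 entered genes without the motif 5 were higher and 3 lower, and among all genes 19.9% and 11.4%. After the GC correction neither of the 2 stayed past 1.5-fold (CHORDC1 0.11, DNAJA1 0.27). With Arkadia siRNA over control siRNA 0 of the 7 were called, against 3 higher and 3 lower of the 24. Among all genes 9.81% were higher and 11.8% lower, so groups this small cannot show a difference by the motif. The median log2 difference of the 7 was 0.30 with ESRP2 siRNA over control siRNA and -0.06 with Arkadia siRNA over control siRNA. The 24 genes without it had medians of 0.22 and 0.08 in the same comparisons.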
